A study of Mus musculus with 4 samples.

Results

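The 10 transcription factor genes Foxl2, Nr5a1, Nr5a2, Gata4, Gata6, Wt1, Nr2f2, Tcf21, Runx2 and Foxp2, which mark and maintain the somatic cells of the ovary, were followed through single cells of the adult mouse ovary. They were taken as a list of gene names and not by a cut on their values, but earlier results of these data were known when they were chosen. They are 10 of the 32285 genes in each matrix. Ovaries of 8-week-old female mice of 1 litter were dissociated for 10x Genomics 3′ sequencing, and there were 2 libraries from each group. Fosl2F/F mice carried both floxed alleles of Fosl2, a subunit of the AP-1 transcription factor, and no Cre. Fosl2cKO mice carried the same floxed alleles and Cyp19a1-Cre, a Cre recombinase under the promoter of the aromatase gene that acts in granulosa cells (GCs). The labels do not say how many ovaries went into a library, so that every p-value below measures the spread between these libraries, which may be technical.

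As background, a follicle grows from an oocyte and its GCs, surrounded by theca cells that make androgen, and after ovulation it becomes a corpus luteum that makes progesterone. Foxl2 keeps GCs on the female fate and holds down genes of the testis. Nr5a1 (SF-1) and Nr5a2 (LRH-1) are nuclear receptors that bind the same DNA motif in steroidogenic genes, Gata4 and Gata6 are zinc finger factors with shared targets in GCs, and Wt1 is a zinc finger factor of the early gonad and of mesothelium. Nr2f2 (COUP-TFII) and Tcf21 are known from interstitial and stromal cells, Runx2 from ovulation and the corpus luteum, and Foxp2 is a forkhead factor best known from the nervous system.

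After filters the 4 libraries held from 6760 to 19575 cells each. Clusters were called "X-like" from marker genes, with the 10 factors left out of the clustering. The granulosa markers were highest in GC-like cells for 9 of 10 genes, the theca markers in theca-like cells for 5 of 8, the interstitial markers for 4 of 5, the luteal markers for 4 of 7, the stromal markers for 9 of 9 and the epithelial markers for 8 of 8. A cluster led by Asb4 and Enpep and another led by Hsd17b7 and Bhmt did not reach any name. GC states were named from markers in the same way. These were highest in their own state for 5 of 5 mural, 5 of 5 cumulus, 5 of 5 atretic, 9 of 9 mitotic, 6 of 6 mitotic-antral and 2 of 4 growing follicle genes. The cumulus cluster had a marker score of 1 for its name and 0.638 for growing follicle. The place of these cells in the follicle was not tested. The second library of Fosl2F/F stood apart by its shallow cells, with a median of 3655 UMIs (unique molecular identifiers, 1 for each captured RNA molecule) a cell against 11177 to 12465 in the other libraries. Between 15 and 81 barcodes were shared by any pair of libraries. Levels are given as CPM, the UMIs of a gene in all cells of a class and library, scaled to a common total. Fosl2 itself was at 161 and 167 CPM in GC-like cells of the Fosl2F/F libraries and at 167 and 115 CPM in those labelled Fosl2cKO. The groups overlapped, the log2 fold change (Fosl2cKO over Fosl2F/F) was -0.25 (SE 0.20, adjusted p = 0.999 by edgeR). In 3 GC states Fosl2 was lower without overlap. These were growing follicle (118 and 144 against 112 and 111 CPM), mitotic (120 and 152 against 119 and 89.8 CPM) and mitotic-antral (105 and 117 against 94.8 and 83.6 CPM). Their log2 fold changes were -0.31 to -0.40, with adjusted p of 0.513 to 0.9998 by edgeR. Of all genes tested, 32.8%, 36.2% and 42.8% did not overlap in these states. In the other GC states and GC clusters the groups overlapped. In the Hsd17b7 Bhmt cluster Fosl2 was higher without overlap (95.2 and 190 against 199 and 305 CPM), as 46.2% of genes did not overlap there. Where the 3′ reads of Fosl2 fall relative to the deleted exons was not analysed here. The libraries are therefore named by their labels.

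Each factor had its own order of classes, and all but Nr5a2 and Runx2 were below 15 CPM in macrophage-like cells, a class of blood origin. Levels between classes are a description without a test, since the classes are clusters of the same cells. Each mean below is over the 4 libraries with its SD (n = 4).

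**Figure D1:**
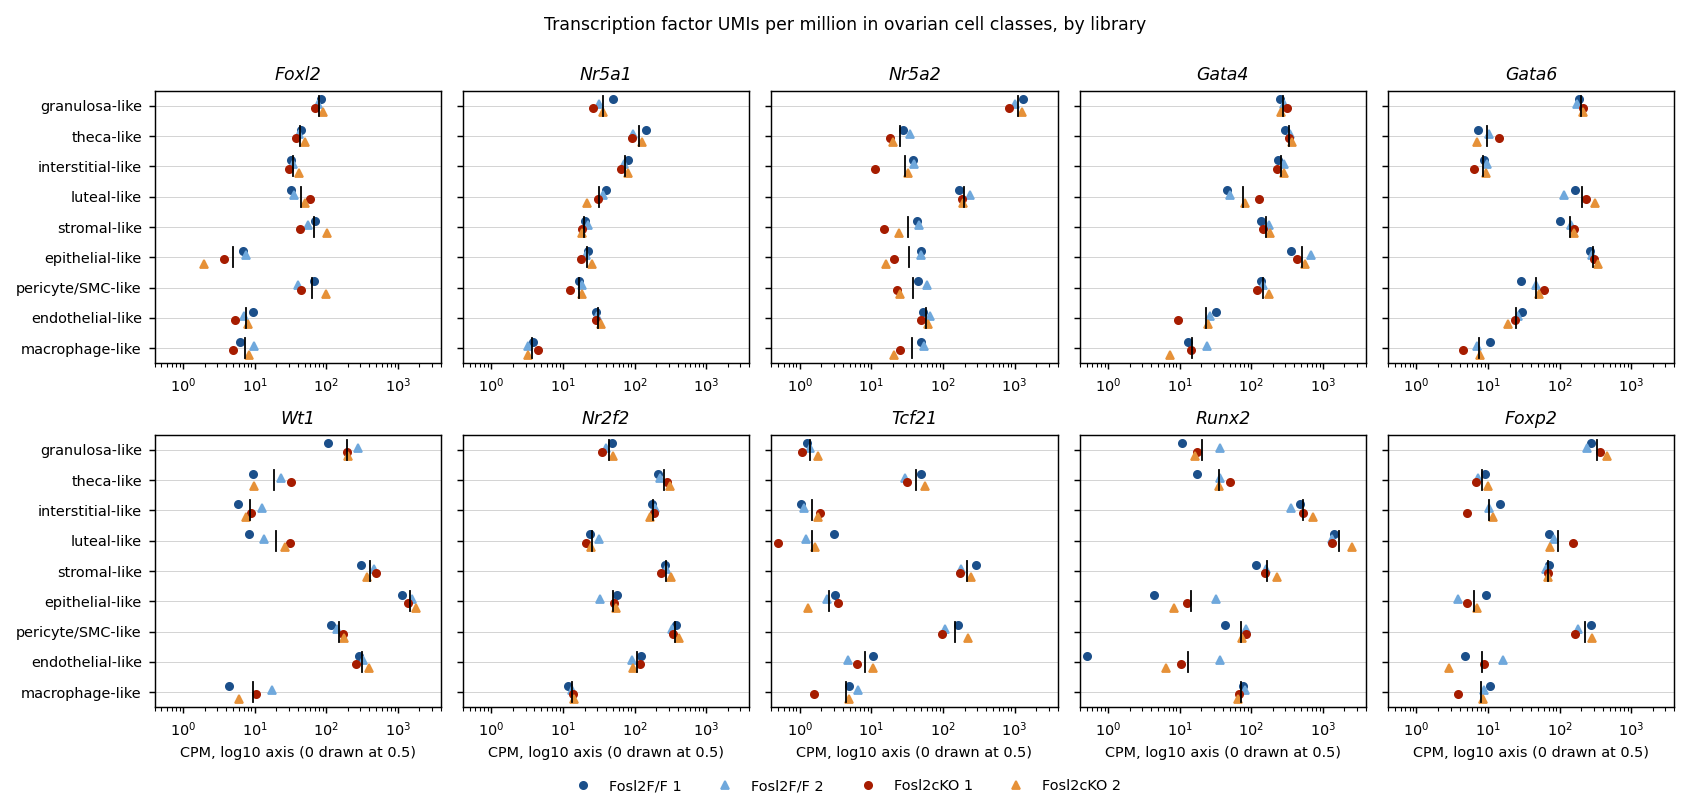
CPM (log axis) of each of the 10 factors in 9 classes and clusters of ovarian cells, with 1 point per library, the color giving the condition, and a black tick at the mean. Of the named classes, Foxl2 was highest in GC-like cells, Nr5a1 in theca-like cells and Wt1 in epithelial-like cells, while Gata6 was near 10 CPM in theca-like and interstitial steroidogenic-like cells.

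In the order of library 1 and library 2 of each group, Foxl2 was at 84.6 and 76.3 CPM in GC-like cells from Fosl2F/F and at 70.2 and 89.4 CPM in the libraries labelled Fosl2cKO. The stromal-like cells were close to this level, at 69.3, 56.0, 42.7 and 103 CPM in the same order. The 2 classes overlapped, with means of 80.1 ± 8.52 and 67.8 ± 25.9 CPM, whereas macrophage-like cells were at 7.37 ± 2.16 CPM and epithelial-like cells at 5.04 ± 2.67 CPM. Among the GC states it was highest in the cumulus state, named for the cells that surround the oocyte, at 129.7 ± 26.1 CPM. It was lowest in the atretic state, named for dying follicles, at 37.3 ± 6.81 CPM. Cumulus was above atretic in 4 of 4 libraries, by 2.98-fold to 3.75-fold.

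Foxl2 was also set against Inha, the inhibin α gene and an abundant transcript of GCs. There were 1.16 to 2.28 Foxl2 UMIs per 100 Inha UMIs in GC-like cells and 1.94 to 9.81 in macrophage-like cells. The stromal-like cells had 21.2 to 117, and the Asb4 Enpep cluster 25.2 to 134. In each library the ratio in macrophage-like cells was above that in GC-like cells, and that in stromal-like cells above both. Among the GC states, cumulus cells had 8.48 to 13.8, above the macrophage-like cells and below the stromal-like cells in each library. The part of RNA from other cells in these values was not tested. With every cell thinned to 2000 UMIs, 13.9% of GC-like, 12.5% of stromal-like and 1.86% of macrophage-like cells had a Foxl2 UMI (54.4%, 27.1% and 4.73% without thinning).

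**Figure D2:**
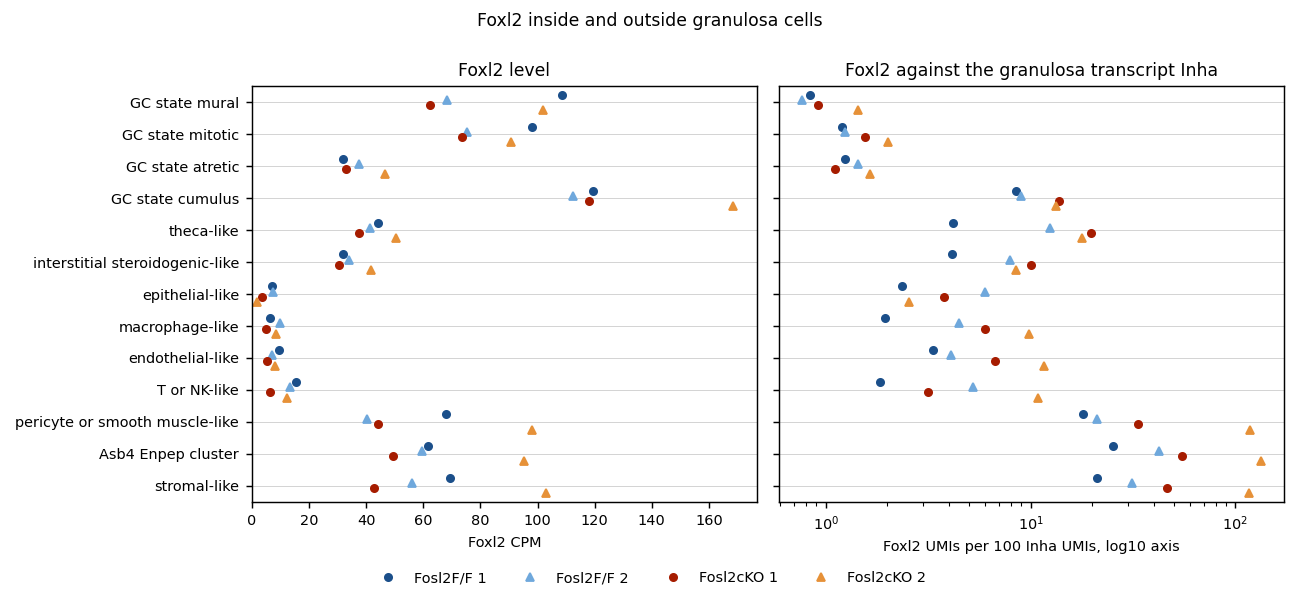
Left, Foxl2 CPM in each library and class (linear axis), and right, Foxl2 UMIs per 100 Inha UMIs in the same libraries (log axis), with 1 point per library. GCs are drawn as mural, mitotic, atretic and cumulus states. Stromal-like cells lie between atretic and cumulus cells in the left panel. In the right panel they lie above each of these GC states in all 4 libraries.

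Nr5a1 and Nr5a2, which code for related receptors, were highest in different classes. Nr5a1 was at 145 and 95.5 CPM in theca-like cells of the Fosl2F/F libraries and at 92.5 and 127 CPM in those labelled Fosl2cKO, so that the groups overlapped. Within the theca-like class it was at 152 ± 25.3 CPM in the cluster led by Cyp17a1, the enzyme that makes androgen, and at 41.3 ± 17.5 CPM in the cluster led by Enpep and Fat3. The interstitial steroidogenic-like cells followed with 74.5 ± 8.14 CPM and GC-like cells with 36.2 ± 9.99 CPM, and the theca-like level was 2.90-fold to 3.51-fold that of GC-like cells in 4 of 4 libraries. Luteal-like (32.2 ± 7.91 CPM) and endothelial-like (30.4 ± 2.53 CPM) cells did not differ from GC-like cells beyond the spread. A Nr5a1 UMI was found in 18.9% of theca-like, 6.98% of GC-like and 1.03% of macrophage-like cells after thinning (60.4% of theca-like and 2.20% of macrophage-like cells without).

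Nr5a2 was at 1319 and 1029 CPM in GC-like cells from Fosl2F/F and at 829 and 1252 CPM in the libraries labelled Fosl2cKO. The level in GC-like cells was 29.98-fold to 63.0-fold that in theca-like cells, which had 25.1 ± 7.49 CPM. The mural state, named for the steroid-making cells of the follicle wall, had the highest level of the named states with 1684 ± 393 CPM. Glycolytic mitotic-antral cells had the lowest with 760.1 ± 162 CPM. After thinning, a Nr5a2 UMI was found in 77.8% of GC-like cells and in 6.63% of macrophage-like cells (95.9% and 17.3% without thinning). Stromal-like (6.41%) and theca-like (4.57%) cells were below the share in macrophage-like cells and T or NK-like cells (7.63%) above it, and no expression was read from shares this near to each other. The source of these UMIs was not tested. Outside the GCs, luteal-like cells held 196 ± 28.1 CPM and the Hsd17b7 Bhmt cluster 605 ± 348 CPM.

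Of all UMIs of the Nr5a pair, Nr5a2 took 96.3% and 97.0% in GC-like cells from Fosl2F/F and 96.9% and 97.2% in the others. In theca-like cells its share was 16.1%, 26.4%, 16.4% and 13.6%, and in interstitial steroidogenic-like cells 31.9%, 35.3%, 14.8% and 28.2%. The Nr5a2 level in both was near the macrophage-like mean of 37.4 CPM. It was 27.9, 34.3, 18.2 and 19.9 CPM in theca-like and 37.6, 38.8, 11.2 and 32.2 CPM in interstitial steroidogenic-like cells. The source of these UMIs was not tested, so that the shares in these 2 classes are not read as a balance of expression. Luteal-like cells had a share of 85.8 ± 3.67%, on the side of the GCs. The share between conditions gave exact two-sided permutation p-values of 0.667 in GC-like and theca-like cells (n = 2 per group), and in interstitial cells the smallest value that 2 libraries against 2 allow, 0.33. These are shares of UMIs, which do not compare the amounts of both proteins.

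Gata4 and Gata6 were balanced in GCs and unbalanced in theca-like cells. Gata4 was at 299.5 and 344 CPM in theca-like cells from Fosl2F/F and at 339.8 and 374 CPM in the libraries labelled Fosl2cKO. Gata6 was at 7.31, 10.5, 14.4 and 6.96 CPM in the same cells, against 7.44 ± 2.51 CPM in macrophage-like cells, and the first library labelled Fosl2cKO was the highest. The shares of theca-like and macrophage-like cells with a Gata6 UMI after thinning were 1.97% and 1.84%, and the source of these UMIs was not tested. In GC-like cells Gata6 was at 189 and 176 CPM in both Fosl2F/F controls and at 209 and 213 CPM in the others, 14.5-fold to 30.6-fold the theca-like level.

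The share of Gata4 in the UMIs of both Gata genes was 97.6%, 97.1%, 95.9% and 98.2% in theca-like cells, with exact binomial 95% intervals between 94.9% and 98.5%. The interstitial steroidogenic-like cells had 96.8 ± 0.369% and the Asb4 Enpep cluster 93.4 ± 2.002%. GC-like cells had 57.5%, 62.0%, 60.5% and 54.8%, stromal-like cells 53.9 ± 4.25%, epithelial-like cells 62.4 ± 5.73% and luteal-like cells 27.1 ± 7.08%. Among the GC states cumulus cells had the most Gata4 (70.8 ± 3.42% of the pair) and atretic cells the least (47.2 ± 4.94%). The condition gave exact permutation p-values of 0.667 in GC-like and 1 in theca-like cells (n = 2 per group), a design that cannot go below 0.33. The intervals cover counting error only, and the libraries of a class differed by more than their intervals in GC-like cells.

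**Figure D3:**
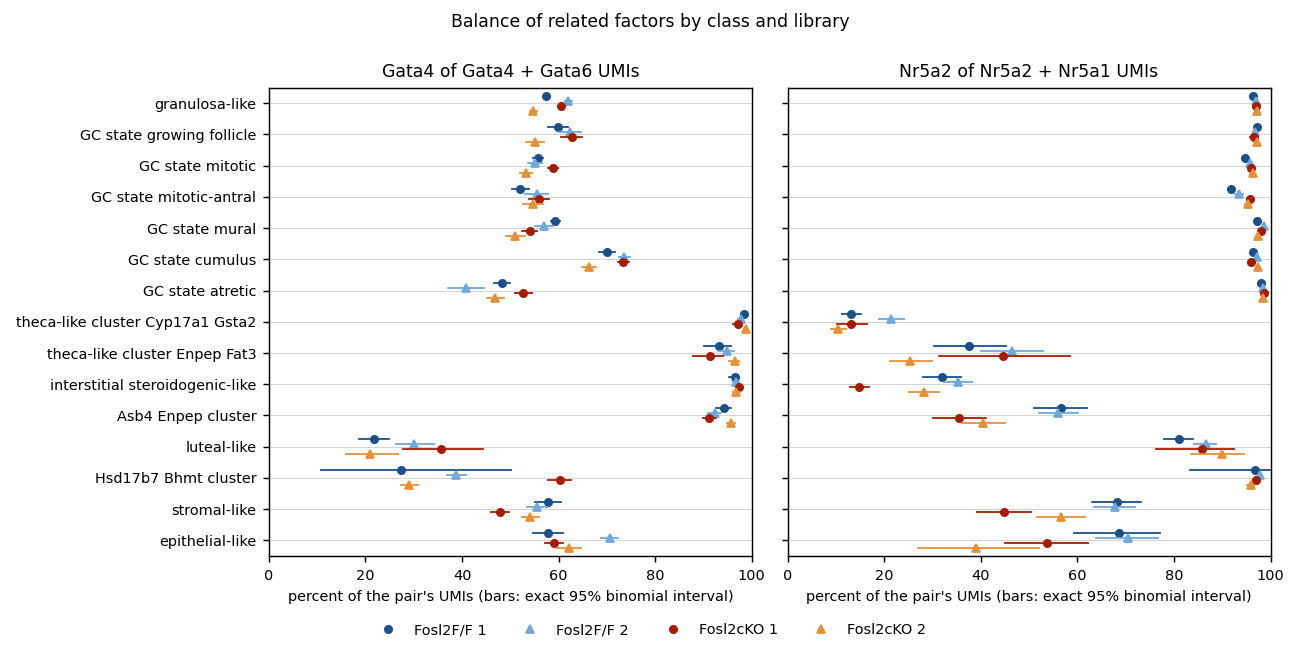
Share of Gata4 in Gata4 plus Gata6 UMIs (left, %) and of Nr5a2 in Nr5a1 plus Nr5a2 UMIs (right, %) in 15 classes, clusters and GC states, with 1 point per library and exact 95% binomial intervals. The Cyp17a1 theca-like cluster and the interstitial steroidogenic-like cells lie above 95% for Gata4 and below 36% for Nr5a2. Nr5a2 itself was near its macrophage-like level in theca-like and interstitial steroidogenic-like cells. The Enpep Fat3 theca-like cluster lies at 91.3% to 96.5% and at 25.4% to 46.4%. GC-like cells lie near 59% and 97%.

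Gata4 and Gata6 were both highest in epithelial-like cells of the ovarian surface among the named classes. Gata4 was there at 361 and 675 CPM in Fosl2F/F and at 431 and 554 CPM in those labelled Fosl2cKO, with 52.2% of thinned cells against 2.12% of macrophage-like cells (83.4% and 5.90% without thinning). Its neighbours in the order, cumulus GCs (449.8 ± 69.6 CPM) and the Cyp17a1 theca cluster (414 ± 41.7 CPM), lay within the spread of the epithelial-like libraries. Gata6 was at 262 and 281 against 299 and 338 CPM, and the libraries labelled Fosl2cKO were both above the Fosl2F/F ones. Of all genes tested there, 23.8% did not overlap, and the log2 fold change of Gata6 was 0.18 (SE 0.30, adjusted p = 0.99995 by edgeR).

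Wt1 was highest in the same epithelial-like cells, at 1129.5 and 1553 CPM in the controls (Fosl2F/F) and at 1383 and 1816 CPM in the libraries labelled Fosl2cKO. The level was 5.55-fold to 10.8-fold that of GC-like cells, and 90.6% of thinned epithelial-like cells held a Wt1 UMI against 1.54% of macrophage-like cells (96.6% and 5.29% without thinning). Stromal-like (409 ± 86.8 CPM) and endothelial-like (318 ± 61.02 CPM) cells also held it, in 41.1% and 41.7% of thinned cells. Theca-like (18.6 ± 11.1 CPM) and interstitial steroidogenic-like (8.71 ± 2.89 CPM) cells were near the 9.62 ± 5.98 CPM of macrophage-like cells.

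Within GCs, Wt1 separated the states more than any other of the factors. Cumulus cells were at 566, 748, 556 and 895 CPM, and mural cells at 6.01, 40.8, 44.9 and 26.6 CPM. Every cumulus value lay above every mural value, by 12.4-fold to 94.2-fold within a library, and the mural state of the first Fosl2F/F library was at the macrophage-like level. Cumulus cells were 9.59% and 31.99% of GC-like cells in the Fosl2F/F pair and 20.1% and 14.6% in the others. The pooled level of 105 and 279.7 against 196 and 201.5 CPM had the order of the cumulus shares between the Fosl2F/F libraries but not between those labelled Fosl2cKO, and the part of the make-up in it was not tested.

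**Figure D4:**
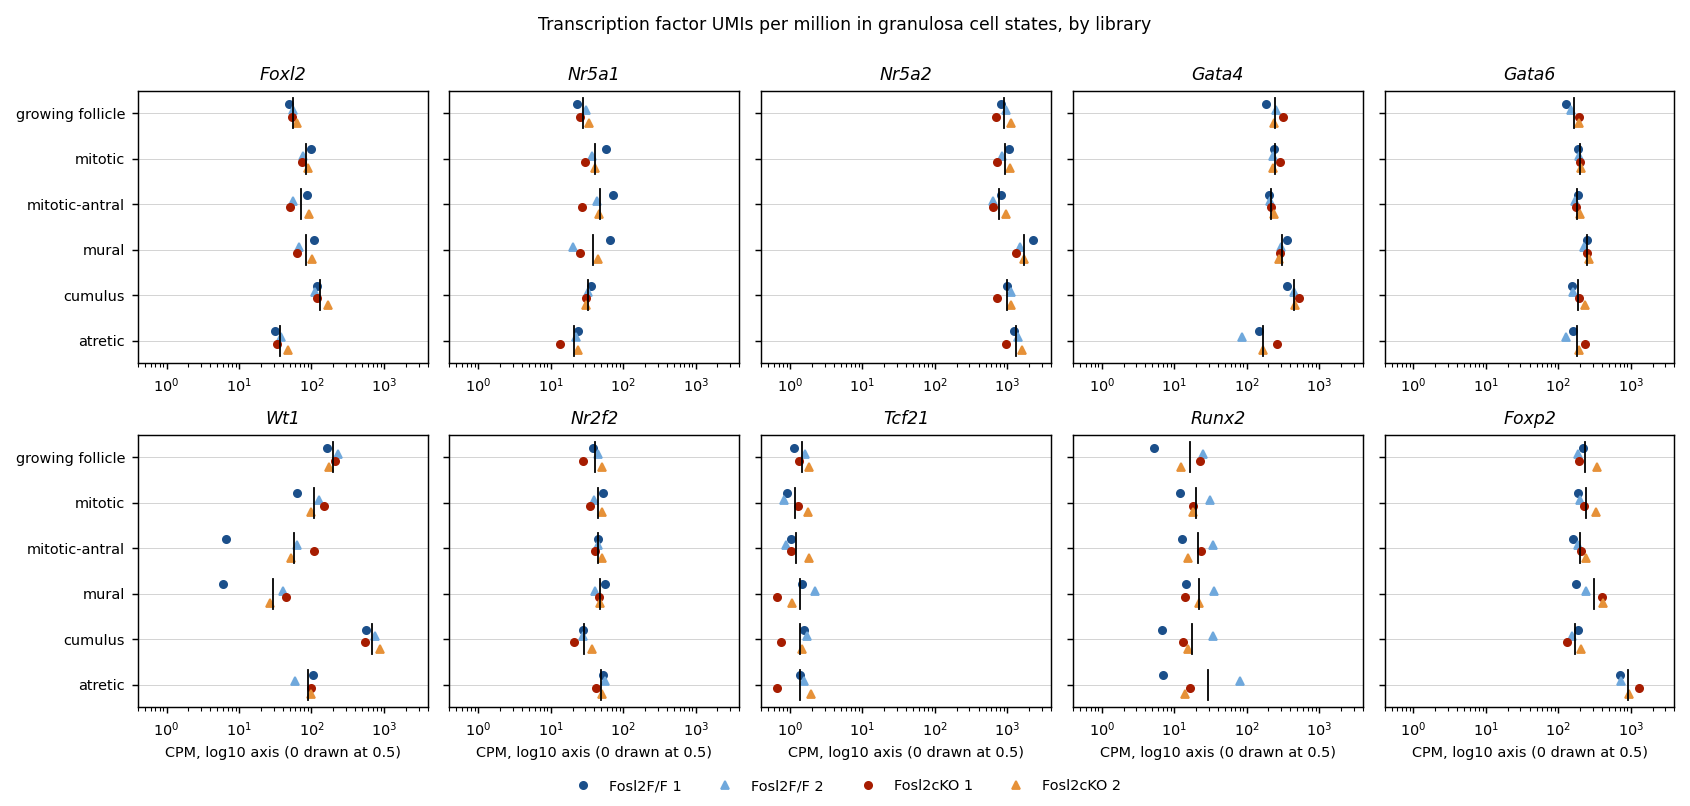
CPM (log axis) of the 10 factors in 6 named GC states, with 1 point per library, the color giving the condition, and a black tick at the mean. Wt1 falls from 691 CPM in cumulus to 29.6 CPM in mural cells, Foxp2 peaks in atretic cells at 919 CPM and Nr5a2 in mural cells at 1684 CPM, while Tcf21 stays near 1 CPM in every state.

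Nr2f2 and Tcf21 were found in the mesenchymal classes, Nr2f2 also in lymphatic endothelial-like cells, and both were lower in GCs. Nr2f2 was at 209 and 228 CPM in theca-like cells of the Fosl2F/F libraries and at 279.5 and 314 CPM in those labelled Fosl2cKO. The groups did not overlap, as for 31.2% of all genes tested there, and the log2 fold change was 0.35 (SE 0.27, adjusted p = 0.999 by edgeR). It was highest in lymphatic endothelial-like (372 ± 53.9 CPM) and pericyte or smooth muscle-like (369 ± 38.1 CPM) cells, which did not differ beyond their spread, and was at 272 ± 34.4 CPM in stromal-like and 43.4 ± 6.999 CPM in GC-like cells. The theca-like level was 4.28-fold to 7.88-fold that of GC-like cells. After thinning, 34.5% of theca-like, 8.26% of GC-like and 1.64% of macrophage-like cells held a Nr2f2 UMI (82.6%, 40.6% and 6.34% without thinning).

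Tcf21, a basic helix-loop-helix factor of fibroblasts, was at 286 and 177 CPM in stromal-like cells of the Fosl2F/F libraries and at 171 and 243 CPM in those labelled Fosl2cKO. GC-like cells had 1.38 ± 0.293 CPM, so that the stromal-like level was 128-fold to 225-fold higher. The theca-like class was split, with 108 ± 39.0 CPM in the Enpep Fat3 cluster and 8.98 ± 5.40 CPM in the Cyp17a1 cluster. The Enpep Fat3 cluster, named from 3 theca markers, was led by genes of dividing cells as well (Mxd3, Hmmr, Depdc1a and Pimreg), and its Tcf21 level was above that of the Cyp17a1 cluster in 4 of 4 libraries, by 7.79-fold to 17.98-fold. The Asb4 Enpep cluster (159.6 ± 58.9 CPM) and the pericyte or smooth muscle-like cells (148 ± 58.0 CPM) lay between the Enpep Fat3 cluster and the stromal-like cells. Interstitial steroidogenic-like cells were at 1.48 ± 0.447 CPM, with the 4.44 ± 2.07 CPM of macrophage-like cells as background.

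Runx2 had its highest levels in luteal-like cells and in the Hsd17b7 Bhmt cluster. Luteal-like cells were at 1436 and 1333 CPM in both Fosl2F/F controls and at 1342 and 2557 CPM in those labelled Fosl2cKO, from 112, 342, 15 and 33 cells. The Hsd17b7 Bhmt cluster was at 494, 2565, 1573 and 2827 CPM. The low value came from 61 cells with 2755 UMIs a cell, and without that library the mean was 2322 ± 661 CPM (n = 3). Interstitial steroidogenic-like cells followed at 482 and 355 against 524 and 724 CPM, at 9.74-fold to 27.3-fold the level of theca-like cells. The groups did not overlap there, as for 29.1% of all genes tested, and the log2 fold change was 0.54 (SE 0.31, adjusted p = 0.9998 by edgeR). GC-like cells had 20.4 ± 11.1 CPM against 72.7 ± 7.30 CPM in macrophage-like cells.

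Foxp2 was highest in atretic GCs, at 702 and 733 CPM in Fosl2F/F and at 1284 and 959 CPM in the libraries labelled Fosl2cKO. The level was 3.72-fold to 9.65-fold that of cumulus cells, which had 170.0 ± 33.3 CPM, and 73.0% of thinned atretic cells held a Foxp2 UMI against 25.1% of cumulus and 0.855% of macrophage-like cells. Lymphatic endothelial-like cells (486 ± 209 CPM) were above the pooled GC-like cells (333 ± 95.5 CPM), within the spread. The pericyte or smooth muscle-like class was split, with 373 ± 87.3 CPM in the cluster led by Myh11, a myosin of smooth muscle, and 12.2 ± 5.68 CPM in the cluster led by Rgs5, a pericyte gene. Theca-like (8.30 ± 1.43 CPM) and interstitial (10.3 ± 3.91 CPM) cells were at the macrophage-like level of 7.94 ± 2.90 CPM.

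Across 20 classes, clusters and states, the mean log2(CPM + 1) of Nr5a1 was closest to that of Gata4 (Pearson r = 0.84) and that of Nr5a2 to Foxp2 (r = 0.78) and Gata6 (r = 0.76). Nr5a2 and Tcf21 were the most opposed (r = -0.60). Outside the list, the pattern of Nr5a2 was most like those of Csrnp3 (r = 0.98), Fshr (r = 0.96), the FSH receptor gene of GCs, and Dpf3 (r = 0.95). Tcf21 was most like Col1a1 (r = 0.98), Lum (r = 0.98) and Mfap4 (r = 0.98), all genes of the extracellular matrix, and Gata4 most like Bmpr1a (r = 0.96), a BMP receptor, Sox12 (r = 0.94) and Garem1 (r = 0.94). Nr2f2 was most like Hoxd10 (r = 0.94), Pygm (r = 0.93) and Hoxd8 (r = 0.92), and Foxp2 most like Fhdc1 (r = 0.92), Serpine2 (r = 0.85) and Commd10 (r = 0.83). Foxl2 was most like Col27a1, Papss2 and Ctnna2 (r = 0.90, 0.89 and 0.89), Nr5a1 most like Myo19, Hadha and Armcx6 (r = 0.89, 0.89 and 0.88), and Runx2 most like Man2a2, Plin4 and Sfrp4 (r = 0.87, 0.86 and 0.85). The 20 points come from the same 4 libraries, and the values are a description of them.

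In GRCm38 the genes lie apart from each other, with Foxl2 at chr9:98955288-98958543 (plus strand), Nr5a1 at chr2:38692656-38714542 (minus strand), Nr5a2 at chr1:136842571-136960448 (minus strand), Gata4 at chr14:63198922-63271692 (minus strand), Wt1 at chr2:105126529-105173616 (plus strand), Nr2f2 at chr7:70351944-70366735 (minus strand), Tcf21 at chr10:22817281-22820174 (minus strand), Runx2 at chr17:44495987-44814797 (minus strand) and Foxp2 at chr6:14901349-15441977 (plus strand). Counts are over whole genes, and 3′ reads come mostly from the last exon.

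The closest patterns of Gata6 and Wt1 were those of genes on the opposite strand beside them. Gata6 was most like 1010001N08Rik (r = 0.98), which overlaps it, before Cdh2 (r = 0.93) and Epha7 (r = 0.93), and Wt1 was most like Wt1os (r = 0.99), which lies within 2 kb, before Phactr1 (r = 0.86) and Tspan7 (r = 0.85). Foxl2, Nr5a1, Nr2f2, Tcf21 and Runx2 also overlap genes of the opposite strand in GRCm38. The authors ran Cell Ranger at its default settings, which count 3′ reads in the sense direction of a gene.

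Promoter windows from 250 bases before to 50 after a start were held for 5 of the 10 factors (RefSeq, GRCm38.p6), in 6 windows. The letters searched on both strands were TGANTCA for AP-1, AAGGTCA for the Nr5a receptors, AGATAA for the Gata factors and TGTGGT for the Runx factors, which are found in 7.81%, 4.72%, 11.2% and 16.8% of all 32851 windows. The windows of 3 factors that held a match are shown, since the factors known to bind these letters are among the 10 genes. The capitals mark matches of the Gata letters in the first and second window and of the Runx letters in the third, and the sequences run 5′ to 3′ on the strand of the gene.
Nr5a2, chr1:136960399-136960698, minus strand: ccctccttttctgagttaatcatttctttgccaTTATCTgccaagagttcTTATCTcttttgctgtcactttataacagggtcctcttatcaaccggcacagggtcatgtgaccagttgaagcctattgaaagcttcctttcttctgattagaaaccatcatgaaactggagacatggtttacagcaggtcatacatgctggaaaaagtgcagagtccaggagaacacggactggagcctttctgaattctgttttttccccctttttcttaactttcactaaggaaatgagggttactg
Tcf21, chr10:22820094-22820393, minus strand: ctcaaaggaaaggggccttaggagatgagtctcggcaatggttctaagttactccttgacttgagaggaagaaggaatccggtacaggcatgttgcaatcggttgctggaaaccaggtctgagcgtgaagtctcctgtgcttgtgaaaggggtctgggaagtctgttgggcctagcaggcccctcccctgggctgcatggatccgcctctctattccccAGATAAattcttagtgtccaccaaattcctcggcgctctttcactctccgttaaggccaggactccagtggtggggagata
Runx2, chr17:44814578-44814877, minus strand: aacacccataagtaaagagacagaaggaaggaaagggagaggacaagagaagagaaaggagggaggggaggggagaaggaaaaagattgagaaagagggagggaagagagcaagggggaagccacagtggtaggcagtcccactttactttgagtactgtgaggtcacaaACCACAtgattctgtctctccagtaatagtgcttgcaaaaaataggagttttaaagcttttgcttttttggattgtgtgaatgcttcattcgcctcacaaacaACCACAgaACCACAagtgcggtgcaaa
Nr5a2 held 2 matches of the Gata letters, 217 and 200 bases before the start, and Tcf21 held 1 at 31 bases before the start. Runx2 held 3 matches of the Runx letters, 80 bases before and 24 and 32 bases after its start. None of the 6 windows held the AP-1 or Nr5a letters, which says only that these letters are not in these windows. A match is a description of the letters and not of a bound site.

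The comparison of the conditions asked whether the 10 factors differ between the Fosl2F/F libraries and those labelled Fosl2cKO. Not all of them are factors of GCs, as Runx2 and Tcf21 were below their macrophage-like means in GC-like cells. In GC-like cells none of the 10 factors passed the test (edgeR's quasi-likelihood test on UMIs summed per library, with calls at an adjusted p under 0.1 where the log2 fold change was larger than 0.25 in either direction), where 0.00579% of all 17271 genes tested passed. The log2 fold changes ran from -0.47 (SE 0.49) for Runx2 to 0.64 (SE 0.20) for Foxp2, with -0.04 (SE 0.20) for Foxl2, -0.20 (SE 0.27) for Nr5a2, 0.06 (SE 0.17) for Gata4 and 0.18 (SE 0.16) for Gata6, all at adjusted p-values of 0.973 or more. The groups did not overlap for 2 of the 10, Gata6 and Foxp2, both higher in the libraries labelled Fosl2cKO, against 31.6% of all genes tested. An adjusted p above the threshold does not show that a level was the same. Changes well above the SE could go unseen, since Foxp2 at 0.64 (SE 0.20) did not pass.

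Over all 21 classes, clusters and GC states tested, 178 tests of a factor were made and 1 passed, of 236284 tests and 217 calls over all genes. By DESeq2 also 1 passed, which was Foxp2 in mural GCs and not the same one. At an unadjusted p under 0.05 there were 14 (7.87%, against 5.39% of the tests over all genes), of which 9 were Nr5a2 lower outside the GCs, 4 were Foxp2 higher in GCs or their clusters and 1 was Foxl2 lower in epithelial-like cells, where it was at 6.93 and 7.58 against 3.71 and 1.93 CPM, near the macrophage-like level. The tests are not independent, since the GC-like class holds the GC states and GC clusters and all units come from the same 4 libraries. The 2 percentages are therefore not read as an excess. The median log2 fold change over the units ran from -0.28 for Nr5a2 to 0.25 for Foxp2.

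**Figure D5:**
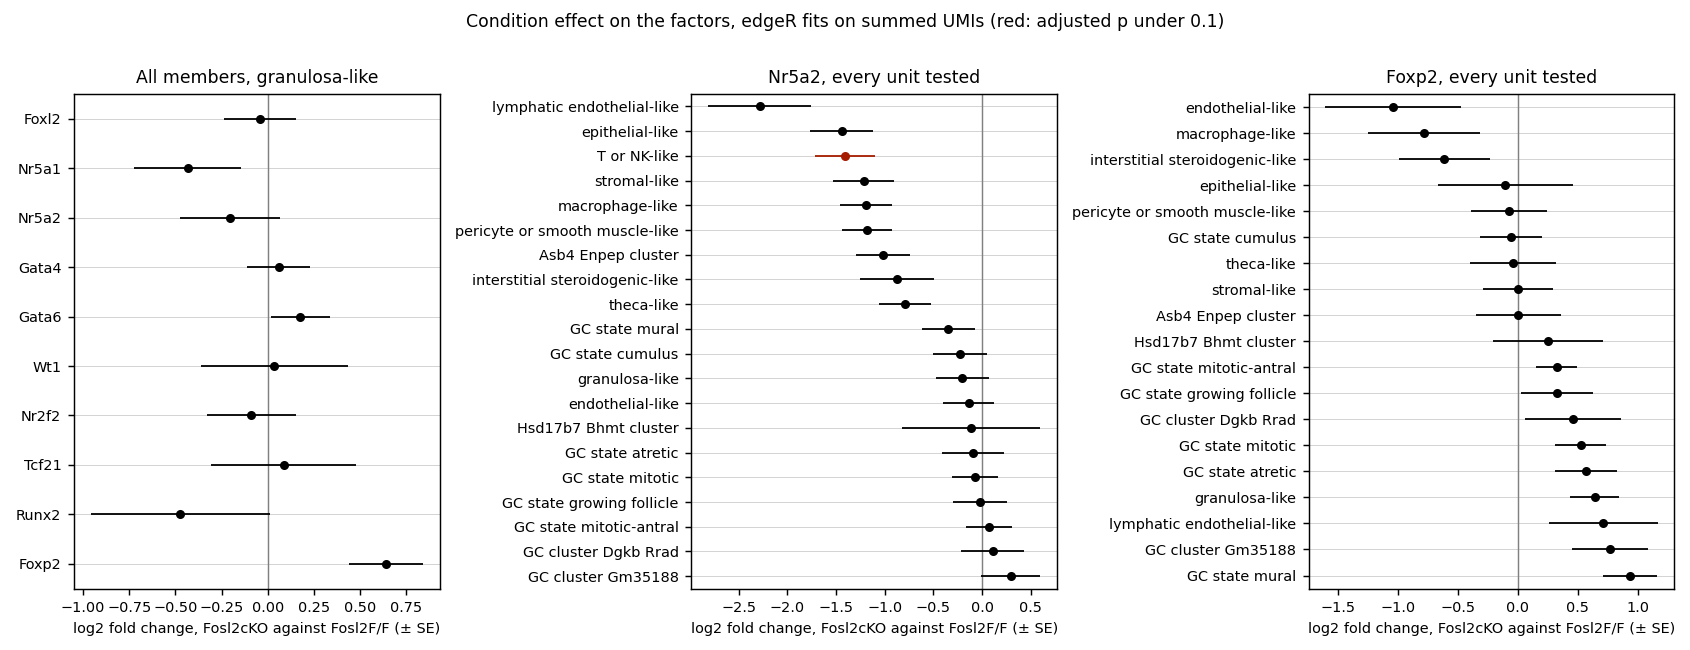
Log2 fold change (Fosl2cKO over Fosl2F/F, with ± 1 SE) of the 10 factors in GC-like cells (left), and of Nr5a2 and Foxp2 in every class, cluster and GC state tested (middle and right). The red point, Nr5a2 in T or NK-like cells at -1.41, passes the threshold, the points of Nr5a2 in GCs lie around 0 and those of Foxp2 reach 0.94 in mural GCs.

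The factor that passed was Nr5a2 in T or NK-like cells. It was at 89.1 and 77.5 CPM in the controls (Fosl2F/F) and at 29.4 and 37.3 CPM in those labelled Fosl2cKO, from 64, 29, 32 and 27 UMIs, with a log2 fold change of -1.41 (SE 0.31, adjusted p = 0.0513 by edgeR, where 0.749% of 7875 genes passed). The groups did not overlap, as for 3 of the 5 factors tested there and 42.8% of all genes. The call ended when only cells over 2000 UMIs were used (adjusted p = 0.146), without the first Fosl2F/F library (0.302), without the first library labelled Fosl2cKO (0.238) and by DESeq2 (0.45).

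Apart from this call, 0 factors passed outside the GC states by edgeR with the cells as filtered, the filter on low counts, all 4 libraries and no block. Nr5a2 also passed in the Asb4 Enpep cluster with doublets kept (60 of 14066 genes passed). It passed in stromal-like cells under 5% mitochondrial UMIs (40 of 13974) and in lymphatic endothelial-like cells over 2000 UMIs (22 of 5776). With doublets kept, Foxp2 (-1.86, adjusted p = 0.0498) and Wt1 (-1.66, adjusted p = 0.0435) also passed in T or NK-like cells by edgeR. Both were lower in the libraries labelled Fosl2cKO, and 134 of 8502 genes passed there. With the replicate block Nr5a2 also passed, lower in the libraries labelled Fosl2cKO, in epithelial-like and macrophage-like cells. There 48 of 11265 and 194 of 10369 genes passed. With the crossed replicate block, added after seeing the data, Nr5a2 passed in epithelial-like, lymphatic endothelial-like, macrophage-like and stromal-like cells. More genes of all kinds passed with that block too, as the closing section gives. Including the call in T or NK-like cells, 9 passed outside the GC states without a gene filter. Of all genes, 284 of 19602 then passed in macrophage-like, 188 of 21249 in pericyte or smooth muscle-like and 84 of 16659 in lymphatic endothelial-like cells. The counts were 212 of 17392 in T or NK-like, 179 of 20180 in endothelial-like and 140 of 19987 in epithelial-like cells. In the Asb4 Enpep cluster 252 of 22714 passed. The calls also changed when 1 library was left out, with more genes of all kinds passing over all units. With the filter, all 4 libraries and no block, 0.0586% of all genes passed in the Asb4 Enpep cluster and 0.0239% in the Hsd17b7 Bhmt cluster. The share was 0.213% in endothelial-like, 0.115% in epithelial-like, 0.133% in interstitial steroidogenic-like and 0.28% in macrophage-like cells. It was 0.00808% in pericyte or smooth muscle-like, 0.248% in stromal-like, 0.101% in theca-like and 0% in lymphatic endothelial-like cells. In B lymphocyte-like cells no factor passed the filter on low counts (0.0526% of genes passed the test and 42.6% did not overlap). The conditions did not overlap for 4 of 10 factors in the Asb4 Enpep cluster against 33.2% of genes, 4 of 9 in the Hsd17b7 Bhmt cluster against 46.2%, 2 of 10 in endothelial-like cells against 28.7% and 3 of 9 in epithelial-like cells against 23.8%. They did not overlap for 3 of 10 in interstitial steroidogenic-like cells against 29.1%, 3 of 4 in lymphatic endothelial-like cells against 32.8%, 5 of 9 in macrophage-like cells against 34.2%, 3 of 10 in pericyte or smooth muscle-like cells against 30.1%, 3 of 10 in stromal-like cells against 28.8% and 2 of 10 in theca-like cells against 31.2%.

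Among the GC states, 0 factors passed by edgeR with the filter on low counts, all 4 libraries and no block. With the crossed replicate block Foxp2 passed in mitotic cells (higher in the libraries labelled Fosl2cKO), and Nr5a1 (lower) and Wt1 (higher) in mitotic-antral cells. Without a gene filter Runx2 (lower) passed in atretic, Nr5a1 (lower) and Wt1 (higher) in mitotic-antral and Foxp2 (higher) in mural cells. More genes of all kinds passed under both settings too, as the closing section gives. When 1 library was left out, a group held 1 library, so only effect sizes are given for the factors past the threshold there. Runx2 in atretic cells went from -1.49 to -2.42 without the first of Fosl2F/F. Without the second of Fosl2F/F, Wt1 went from 1.19 to 3.52 in mitotic-antral and from 0.65 to 2.53 in mural cells. Foxp2 in the cluster led by Gm35188 went from 0.77 to 1.08 without the first labelled Fosl2cKO. With the filter, all libraries and no block, 0.00764% of genes passed in atretic, 0.0152% in cumulus, 0.00801% in growing follicle, 0.00686% in mitotic, 0.00814% in mitotic-antral and 0.00787% in mural cells, and 0.0403% and 0.0236% in the unnamed GC clusters led by Dgkb and Gm35188. The conditions did not overlap for 4 of 10 factors in atretic cells against 35.6% of genes, 4 of 10 in cumulus cells against 31%, 1 of 9 in growing follicle cells against 32.8%, 3 of 10 in mitotic cells against 36.2% and 2 of 9 in mitotic-antral cells against 42.8%. In the unnamed clusters it was 1 of 9 against 30.9% and 2 of 6 against 39.4%.

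Outside the GCs, Nr5a2 was lower without overlap in 9 of the 11 classes and clusters in which it was tested, where between 23.8% and 42.8% of all genes did not overlap. Stromal-like cells were at 43.1 and 46.8 against 15.01 and 24.0 CPM, a log2 fold change of -1.22 (SE 0.32, adjusted p = 0.227). Macrophage-like cells were at 49.7 and 53.7 against 25.3 and 20.9 CPM (-1.19, SE 0.27, adjusted p = 0.196), and epithelial-like cells at 49.8 and 49.6 against 20.8 and 16.1 CPM (-1.44, SE 0.33, adjusted p = 0.176). In theca-like cells the values were 27.9 and 34.3 against 18.2 and 19.9 CPM (-0.79, SE 0.26, adjusted p = 0.674). Each of these levels is below 60 CPM, against 829 CPM or more in every library of GC-like cells.

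Between 4 and 8 of the 10 markers of GCs were lower without overlap in the classes outside the GCs in which they were counted. Of all genes tested, 42.8% did not overlap in either direction in T or NK-like, 34.2% in macrophage-like and 31.2% in theca-like cells. The share was 29.1% in interstitial steroidogenic-like, 28.8% in stromal-like, 28.7% in endothelial-like, 23.8% in epithelial-like and 31.6% in GC-like cells. The 5 markers in T or NK-like and 4 in theca-like cells were near these shares. In GC-like cells themselves 4 were lower and 2 higher without overlap, and their summed level was 14507 and 8548 against 7782 and 7937 CPM. In stromal-like cells 8 of the 10 granulosa markers were lower without overlap in the libraries labelled Fosl2cKO and 1 was higher, and their summed level was 629 and 346 against 212 and 209.99 CPM. In macrophage-like cells 6 were lower and 1 higher (587 and 369 against 171 and 179 CPM), and in T or NK-like cells 5 were lower (1496 and 454 against 400.3 and 233 CPM). In epithelial-like and interstitial steroidogenic-like cells, where Nr5a2 was lower too, 5 markers were lower and 1 higher, and the summed level overlapped (1078 and 544 against 539 and 762 CPM, and 1027 and 553 against 406 and 611 CPM). The epithelial-like sum was mostly Kctd14 (549.6 and 330.2 against 374 and 632 CPM), the marker that was not highest in GC-like cells, and Inha did not overlap there (292 and 126 against 98.1 and 75.4 CPM). In endothelial-like cells 7 markers were lower (522 and 324 against 158 and 147 CPM) while Nr5a2 overlapped, at 53.1 and 66.9 against 48.8 and 61.9 CPM. None of the 10 was at 0 in every library of these classes. For 100 Inha UMIs, stromal-like cells held 13.2 and 26.2 Nr5a2 UMIs in the Fosl2F/F pair and 16.4 and 27.1 in the others, and T or NK-like cells held 10.7 and 30.5 against 14.4 and 32.5. GC-like cells held 18.0 and 22.5 against 20.5 and 31.96, and on this scale the groups overlapped in each of these classes. In endothelial-like cells they did not, at 18.4 and 39.0 against 60.8 and 88.9. The part of GC RNA in the lower Nr5a2 level was not tested.

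Foxp2 was at 276 and 238 CPM in GC-like cells from Fosl2F/F and at 366 and 451 CPM in the libraries labelled Fosl2cKO. The groups did not overlap, and the log2 fold change of 0.64 (SE 0.20) had an unadjusted p of 0.0176 and an adjusted p of 0.973 by edgeR. In mural GCs it was at 175 and 239.5 against 405 and 411 CPM, with a log2 fold change of 0.94 (SE 0.23, adjusted p = 0.658), and here 3 of the 9 factors tested did not overlap against 32.3% of all genes. DESeq2 gave this difference an adjusted p of 0.0805, past the threshold. In the pooled GC-like cells DESeq2 called 173 of 17271 genes, against 1 by edgeR. In atretic GCs the log2 fold change was 0.57 (SE 0.26, adjusted p = 0.903), whereas cumulus cells were at 189 and 152 against 133 and 206 CPM (-0.06, SE 0.26, adjusted p = 0.999). The share of atretic cells in the GC-like class was 18.2% and 8.42% in both Fosl2F/F controls and 13.1% and 22.5% in the others, and its part in the pooled value was not tested.

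The difference of the condition effect between GC-like and stromal-like cells was tested as an interaction on the same libraries. Of 17553 genes, 0 passed (edgeR, 614 at an unadjusted p under 0.05, 0% called), and so none of the 10 factors did. The difference was 1.02 (log2, SE 0.25) for Nr5a2 and 0.63 (SE 0.23) for Foxp2, both more positive in GC-like cells. Their unadjusted p-values were 0.00265 and 0.0231 by edgeR, at an adjusted p of 1. With the crossed replicate block, added after seeing the data, 182 genes passed, and 1 of the 10 factors, Nr5a2, was among them.

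In all, 3 lists of related genes were followed beside the factors. Of 44 partner genes, which are cofactors and other gonadal transcription factors, 40 were tested in GC-like cells and none passed, with a median log2 fold change of 0.14 against -0.02 over all genes tested. The largest sizes were 1.94 for Cited4, 1.53 for Irx3 and -1.52 for Nr2f1, of which Cited4 and Nr2f1 stayed below 10 CPM in every library. Irx3, a homeobox gene of early GCs, was at 12.7 and 19.7 against 44.2 and 50.8 CPM (adjusted p = 0.348). In epithelial-like cells Irx3 rose, from 79.4 and 76.4 to 189.7 and 409 CPM, by 1.88 on the log2 scale (SE 0.37, adjusted p = 0.0881, where 0.115% of genes passed). This call ended without either Fosl2F/F library, when 0 genes passed in these cells, and at an adjusted p under 0.05. In the Hsd17b7 Bhmt cluster Wnt4, a ligand of ovarian fate, fell from 113 and 70.5 to 6.35 and 8.63 CPM (-3.65, SE 0.51, adjusted p = 0.0943, where 0.0239% of genes passed), and the first of these libraries gave only 61 cells, with Akr1c18 at 2672 CPM against 4.97 CPM or less in the others. The Wnt4 call ended without either Fosl2F/F library, with doublets kept, with coarser clusters, without a scaling factor and at an adjusted p under 0.05.

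Of the 9 testis-side genes, a list taken from the male gonad programme, 7 were tested in GC-like cells and none passed there or in another unit by edgeR. Sox9, the factor that starts the testis and named here for that role after its values were seen, was at 5.39 and 7.09 against 7.81 and 4.50 CPM, with overlap. The largest sizes in GC-like cells were 1.22 (SE 0.18, adjusted p = 0.34) for Dhh, a hedgehog ligand, at 14.2 and 15.5 against 38.1 and 32.4 CPM, then -1.02 for Sox8 and -0.40 for Ptgds. Sox8 was below 5 CPM and Ptgds below 4 CPM in each library. Dhh was also among the leading genes of a granulosa cluster when the libraries were not integrated, so that it is not a gene of the testis alone.

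Of 20 target genes, the steroidogenic and hormone genes that these factors are known to bind, 19 were tested in GC-like cells and none passed, with a median log2 fold change of -0.42. Lhcgr, the LH receptor gene, was at 201 and 77.5 against 36.6 and 30.6 CPM (-2.10, SE 0.45, adjusted p = 0.58), Akr1c18, which breaks down progesterone, at 9.40 and 10.8 against 4.08 and 1.14 CPM (-1.99, SE 0.54, adjusted p = 0.847) and Cyp19a1, the aromatase, at 219 and 57.8 against 33.5 and 43.7 CPM (-1.89, SE 0.59, adjusted p = 0.973). These 3 were chosen as the largest changes of the list. Mural cells, to which Lhcgr and Cyp19a1 belong, were 30.3% and 14.7% of GC-like cells in Fosl2F/F and 16.1% and 11.8% in the others, and the part of this make-up was not tested. The promoter of Cyp19a1 also drives the Cre.

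In T or NK-like cells 7 of the 14 target genes tested fell, namely Inha, Hsd3b1, Scarb1, Cyp11a1, Akr1c18, Inhba and Lhcgr, where Nr5a2 passed too and 0.749% of all genes passed. With only cells over 2000 UMIs, 2 genes of any kind were called lower there, so that at least 5 of the 7 calls ended. Inha fell from 831 and 254 to 204 and 115 CPM there (-1.85, SE 0.39, adjusted p = 0.0376), and from 323 and 220 to 83.3 and 85.9 CPM in macrophage-like cells (-1.74, SE 0.30, adjusted p = 0.0514, where 0.28% of genes passed). Inha also fell in endothelial-like cells (0.213% of genes passed), Lhcgr in stromal-like cells (0.248%), and Akr1c18 in macrophage-like, stromal-like and theca-like cells (0.101%) and in the Asb4 Enpep cluster (0.0586%). Without the first Fosl2F/F library 0 genes passed in endothelial-like, stromal-like and theca-like cells and in the Asb4 Enpep cluster. Without the second, 0 passed in endothelial-like cells and the Asb4 Enpep cluster, and with the replicate block 0 in endothelial-like cells. With doublets kept, 0 genes were called lower in macrophage-like cells. Inha and Inhba are among the granulosa markers given above, and Lhcgr and Akr1c18 are genes of mural and luteal cells. The part of RNA from GCs and luteal cells in these falls was not tested.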

How the data were processed

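The deposited matrices held counts of UMIs per gene and cell barcode, made by the authors with Cell Ranger on GRCm38. Whether CellBender, which the study ran to remove ambient RNA, was applied to them is not given in the sources used here. A cell had to have at least 500 genes and more than 1000 UMIs, less than 10% of them mitochondrial and less than 0.1% from hemoglobin genes, and doublets were removed per library at a preset 0.8% per 1000 cells (412 to 4723 cells). Libraries were integrated in Seurat 5.3.0 with 3000 features, the 10 factors left out, and clusters were named by marker scores whose limits were chosen after the clusters were seen. UMIs were summed per library and class with at least 20 cells and tested with edgeR 4.0.16 (quasi-likelihood, TMM, Benjamini-Hochberg), and DESeq2 1.42.0 was an alternative. The depth was 120327227 to 148836173 UMIs per library. The scripts were tested on simulated data. Beside the 10 factors, the genes named are those of the lists that passed in a class, the 3 with the largest change in GC-like cells, and the 3 most like each factor among genes with a mean of 20 CPM or more in a class. The members and lists were chosen with earlier results of these data known, and the crossed replicate block was added after seeing the data.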

Additional observations from a re-analysis of the deposited data

Results flagged for a closer look

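Over 10 classes and states (6 GC states and theca-like, interstitial steroidogenic-like, stromal-like and epithelial-like cells), both libraries of a condition lay on one side in some and on the other side in others for 3 of the factors. In each of these classes and states 23.8% to 42.8% of all genes tested did not overlap between the conditions, and how many genes do so in opposite directions was not counted. Gata4 was higher in the libraries labelled Fosl2cKO in cumulus (log2 fold change 0.24), atretic (0.76) and glycolytic mitotic-antral GCs (0.10) and lower in mural GCs (-0.25). Nr2f2 was lower in atretic GCs (-0.30) and higher in theca-like cells (0.35). Tcf21 was lower in cumulus GCs (-0.65) and higher in mitotic GCs (0.76) and interstitial steroidogenic-like cells (0.72), where it was near 1 CPM throughout. None of these values passed the test within its class, and the differences between the classes were not tested.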

How the results depend on the processing

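The 1 factor past the threshold became 4 with doublets kept, 2 under 5% mitochondrial UMIs, 13 without a gene filter and 0 at an adjusted p under 0.05 with no minimum fold. It was 1 to 7 when 1 library was left out (7 without the second library of either group, 4 without the first labelled Fosl2cKO), where a lone library is assumed to vary like the others. The 217 genes became 329 with doublets kept, 1108 by DESeq2, 4960 without a gene filter, 126 at an adjusted p under 0.05, and 496 to 2449 when 1 library was left out. With the replicate block there were 3 factors and 851 genes. The labels do not say that equal numbers were processed together, and their deviations in GC-like cells correlated at -0.27. The crossed replicate block gave 8 factors, 3172 genes and 1 factor (Nr5a2) in the interaction. The cause of these changes was not tested. The called Nr5a2 value in T or NK-like cells stayed negative (-2.27 to -1.22). In the interaction, Nr5a1 went from -0.21 to 0.16 and Wt1 from 0.01 to -0.40 without the first Fosl2F/F library, neither called. The log2 fold changes followed were counted once per setting, and 271 kept their side of the threshold, 23 passed it and 4 no longer did. These 4 were all the call of Nr5a2 in T or NK-like cells, under the settings given with it. Of the shares 44 moved and 134 did not, and of the levels 1 of 100 moved (Nr5a1, to 72.8 CPM with coarser clusters). With 2 libraries per group, and the second Fosl2F/F library shallow, changes in the factors could go unseen. In mural GCs a log2 fold change of 0.94 (SE 0.23) for Foxp2 did not pass by edgeR. Thinning removed 4.23% to 20.3% of cells.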
